A study of Caenorhabditis elegans with 59 samples.

Results

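Caenorhabditis elegans carries a family of small heat shock protein genes, and the 8 described here, hsp-12.1, hsp-12.2, hsp-12.3, hsp-12.6, hsp-17, hsp-25, hsp-43 and sip-1, were chosen by name as alpha-crystallin genes other than the heat-inducible hsp-16 genes. All 8 were among the 15364 genes listed for sterile worms. In fertile worms 6 of the 8 were listed, among 10763 genes at 8 h and 10307 genes at 24 h, and hsp-12.1 and hsp-12.6 were not. The same 6 passed the filter on low values in every table (at least 1 CPM, reads scaled to the library total, in at least 25% of libraries), so hsp-12.1 and hsp-12.6 are given by level.

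Small heat shock proteins are ATP-independent chaperones built around an alpha-crystallin domain. They bind proteins that begin to unfold and hold them back from aggregating until ATP-dependent chaperones such as HSP70 refold them. In C. elegans the hsp-16 genes are switched on by heat through HSF-1, the heat shock transcription factor, while several relatives are made in unstressed worms in particular tissues or stages. SIP-1 is known from the developing embryo, HSP-25 from the attachment structures of body wall muscle and HSP-12.6 from long-lived worms with reduced insulin signaling, and the HSP-12 proteins are among the smallest of the family.

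The study depleted HSF-1 with an auxin-inducible degron, and RNA was sequenced from pools of picked whole worms after 8, 24 or 48 h on auxin plates or, as mock treatment, ethanol plates. JTL611 (hsf-1::aid::gfp) and its control strain CA1200, which lacks the degron, were fertile young adults kept at 20 °C, with 3 libraries per strain and agent at 8 h and at 24 h. JTL667 carries the degron with glp-1(e2141), which leaves adults raised at 25 °C without a germline, and JTL670 carries the degron with fem-3(q20), which makes the germline produce only sperm at 25 °C. Both were Day 1 adults when transferred to the plates, and they are called glp-1 and fem-3 worms here. They had 3 libraries per agent at 8, 24 and 48 h, except auxin-treated glp-1 worms at 48 h, with 2. All 4 strains carry unc-119(ed3) and the ieSi57 transgene, in which the eft-3 promoter drives TIR1, the auxin receptor that targets a degron, in somatic cells, so the system does not act on HSF-1 in germ cells. Fertile and sterile worms differed in genotype, temperature and normalization, and their levels are set side by side without a test. The labels do not say whether replicates came from separate cultures, so the p-values measure only the spread between these samples.

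The titles and the agent labels of 18 of the 59 samples disagreed, all in sterile worms, and the titles, which the table columns follow, set the groups here. With these groups the summed CPM of the 6 hsp-16 genes in auxin libraries lay below every mock library of the same strain and hour, for example at 0.109 to 1.44 against 16.38 to 19.9 CPM in fem-3 worms at 8 h. The degron acts on HSF-1 protein, so hsf-1 mRNA is no check of the depletion, and it did not pass the test on auxin at any hour in either sterile strain (log2 fold changes of -0.07, 0.27 and 0.41 in glp-1 and 0.03, -0.24 and -0.17 in fem-3 worms at 8, 24 and 48 h). Libraries held 9131588 to 23867943 reads on listed genes, and 3 reads, the floor used for a count of 0, came to 0.133 to 0.366 CPM. Mock glp-1 replicate 1 at 24 h stood apart, with the fewest reads and 4340 listed genes without a read, against at most 2382 in any other library of sterile worms. In glp-1 libraries 22 sperm markers summed to at most 34.5 CPM and 10 germ cell markers to at most 83.8 CPM, against at least 3832 and 2075 CPM in fem-3 libraries, so the markers followed the labels.

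The members lie on 5 chromosomes of WBcel235 and are protein-coding. sip-1 (WBGene00004798) is at III:10506106-10506801, hsp-17 (WBGene00002021) at V:8384799-8385929, hsp-25 (WBGene00002023) at X:6034463-6039644 and hsp-43 (WBGene00002024) at X:6233151-6235543, all on the minus strand. hsp-12.3 (WBGene00002012, IV:9444791-9445507) and hsp-12.6 (WBGene00002013, IV:9446229-9447228) are neighbors on the minus strand, hsp-12.2 (WBGene00002011) is at III:8138077-8139631 on the plus strand, and hsp-12.1 (WBGene00011906) is at I:10581538-10582615 on the minus strand. sip-1, hsp-17, hsp-25 and hsp-12.2 overlap genes on the opposite strand by 123, 73, up to 83 and 11 bases. The libraries were directional, but the strand setting of the read counting is not given in the sources used here.

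sip-1 was nearly absent without a germline, present in worms with a sperm-only germline and highest in fertile worms. At 8 h of mock treatment it had 0, 0 and 0.2725 CPM in glp-1 worms (0, 0 and 5 reads), against 90.2, 118 and 148 CPM in fem-3 worms. At 24 h no mock glp-1 library held a sip-1 read, against 144, 185 and 192 CPM in fem-3 worms. At 48 h mock glp-1 libraries had 1, 1 and 0 reads, against 171, 190 and 189 CPM in fem-3 worms. The strains did not overlap at any hour. From pooled reads sip-1 was 1140-fold lower in glp-1 than in fem-3 mock worms at 8 h (exact 95% interval 488 to 3513) and 4666-fold lower at 48 h (1291 to 38530). At 24 h it was at least 474-fold lower, taking the glp-1 level at 3 reads in the shallowest library. These intervals and floors cover counting error only. In a limma fit over all 35 libraries of sterile worms the difference passed the test at each hour, with Benjamini-Hochberg adjusted p of 1.0e-13, 6.1e-15 and 1.2e-14 in order of time.

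In fertile worms the 12 libraries at 8 h had 965 to 1645 CPM of sip-1, and the 12 at 24 h 995 to 2253 CPM. The summed level of 14 oogenic germline markers followed the same order. It was 0.733 to 10.8 CPM in mock glp-1 worms, 260 to 533 CPM in mock fem-3 worms and 6982 to 18670 CPM in fertile worms. The sum of the 10 germ cell markers had this order too, so it was not particular to oogenic genes. That sum was 49.4 to 83.8 CPM in mock glp-1, 2148 to 3215 CPM in mock fem-3 and 3842 to 7999 CPM in fertile worms. The part of oocytes, their precursors or other germ cells in the sip-1 level was not tested. In whole-worm RNA fewer cells of a type cannot be told apart from less RNA per cell. At 24 h in fertile worms replicate 1 had the lowest and replicate 3 the highest sip-1 in every strain and agent, and the oogenic sum was also lowest in replicate 1 of all 4 groups. That sum was highest in replicate 3 of both auxin groups but in replicate 2 of both mock groups.

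**Figure D1:**
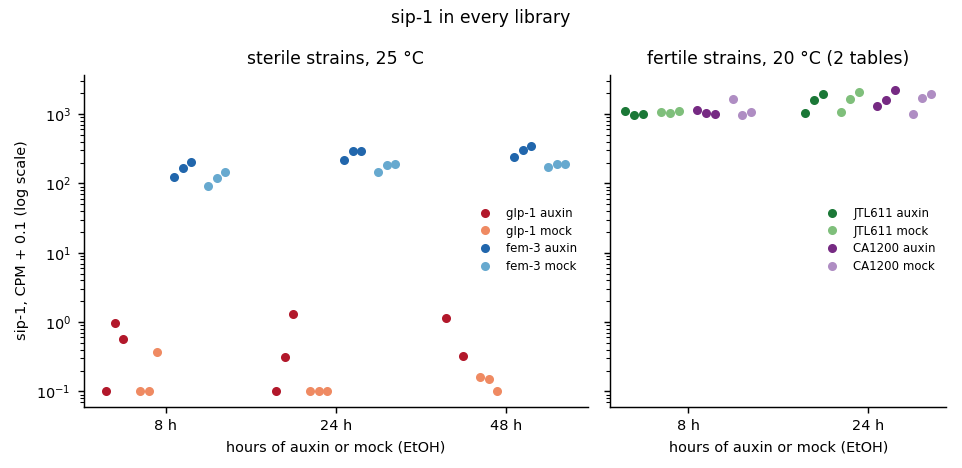
sip-1 level in each library of sterile and fertile worms by strain, agent and hour, on a logarithmic axis of CPM + 0.1, so that libraries without a read show at 0.1. Each point is a library, and the fertile panel holds 2 separately normalized tables. glp-1 libraries sit at 0 to 1.20 CPM, fem-3 libraries at 90.2 to 344 CPM and fertile libraries at 965 to 2253 CPM.

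Mock-treated glp-1 worms had higher levels than fem-3 worms of hsp-17, hsp-25 and hsp-43 at all 3 hours and of hsp-12.2 at 8 h. Of the 6 members tested, 4 were higher and 1, sip-1, lower at 8 h, and 3 were higher and sip-1 lower at 24 h and at 48 h. A gene counts as changed where its adjusted p is under 0.05 and its mean over the table at least 2 CPM. The strains differed in much of the transcriptome, and 68.5% of all genes tested passed at 8 h, 73% at 24 h and 70.6% at 48 h, so members passed at about the background rate. The median log2 fold change of all genes was 0.02, -0.36 and -0.25 at 8, 24 and 48 h, against member medians of 1.12, 0.87 and 0.97. The member median at 24 h was 0.50 without glp-1 replicate 2 and 0.46 without replicate 3. Centring each library on its median instead adds 0.80, 0.995 and 0.95 to every log2 fold change between the strains at these hours, so the size of the differences depends on the scaling while the direction of the members that passed does not. The share of genes that were higher in glp-1 among those that passed was 46.1%, 42.6% and 42.1% and became 63.3%, 59.7% and 60.9%. RNA of fem-3 worms includes that of a germline, so cell composition cannot be told apart from regulation for any member. The sum of 5 hypodermis markers had means of 4024, 916 and 230.5 CPM in glp-1 mock worms at 8, 24 and 48 h. In fem-3 mock worms the means were 946, 428 and 221 CPM. The part of composition in the member differences was not tested.

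hsp-17 was higher in every mock glp-1 library than in the mock fem-3 libraries of its hour. It had 106.5, 89.4 and 80.2 CPM in glp-1 against 36.8, 38.1 and 36.6 CPM in fem-3 mock worms at 8 h. At 24 h it had 81.9, 119 and 88.7 CPM in glp-1 against 46.1, 43.3 and 50.3 CPM in fem-3 worms, and at 48 h 120, 142.4 and 126.5 CPM against 53.3, 58.4 and 65.9 CPM. The strains were apart at each hour, with log2 fold changes of 1.30, 1.04 and 1.13 (SE 0.16, limma adjusted p of 2.5e-08, 9.8e-07 and 2.4e-07).

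hsp-25 differed in the same direction. At 8 h it had 127, 136 and 129 CPM in glp-1 against 61.1, 55.2 and 52.7 CPM in fem-3 mock worms, and at 48 h 88.2, 85.7 and 81.6 CPM against 28.2, 34.8 and 29.3 CPM. The groups did not overlap at these hours, and the log2 fold changes were 1.22 at 8 h and 1.47 at 48 h (SE 0.30, limma adjusted p of 0.00079 and 8.4e-05). At 24 h glp-1 mock worms had 23.8, 104 and 102.5 CPM, against 34.2, 31.9 and 46.1 CPM in fem-3 worms. The low value was that of the library with the fewest reads, and the log2 fold change with it was 0.78 (adjusted p = 0.022). Without that library it was 1.48 (adjusted p = 1.6e-09), whereas leaving out glp-1 replicate 2 or 3 or fem-3 replicate 1 or 2 gave 0.42 to 0.72 and no call. The summed level of 12 body wall muscle markers was also higher in glp-1 mock worms, with means of 10180, 6151 and 4030 CPM at 8, 24 and 48 h against 4723, 2304 and 1644 CPM in fem-3 worms, and its part in the hsp-25 difference was not tested.

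The hsp-43 difference was smaller at the later hours. It had 190, 186.5 and 197 CPM in glp-1 against 92.0, 99.8 and 89.95 CPM in fem-3 mock worms at 8 h, and 112, 134 and 153 CPM against 90.5, 84.8 and 87.5 CPM at 24 h. At 48 h it had 158, 143 and 119.0 CPM in glp-1 against 97.9, 101 and 118.6 CPM in fem-3 worms, which nearly touch. The log2 fold changes were 1.02, 0.59 and 0.40 (SE 0.11, limma adjusted p of 4.6e-09, 3.3e-05 and 0.0026). A change of this difference with time was not tested as such.

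**Figure D2:**
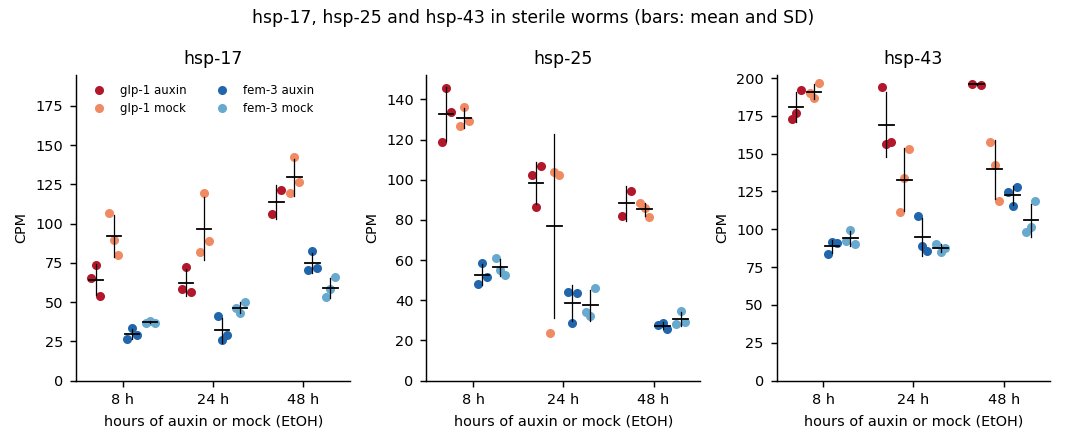
CPM of hsp-17, hsp-25 and hsp-43 in each sterile library by strain, agent and hour. Each point is a library, and black bars are the mean and SD of a group (2 or 3 libraries). hsp-17 reaches 142.4 CPM in glp-1 and 82.4 CPM in fem-3 worms, and the lone low hsp-25 point of mock glp-1 worms at 24 h is 23.8 CPM.

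With age in mock-treated worms hsp-17 rose in both sterile strains between 8 and 48 h, by a log2 fold change of 0.50 in glp-1 (adjusted p = 0.019) and 0.66 in fem-3 worms (limma adjusted p = 0.0026). hsp-43 fell in glp-1 worms (-0.46, adjusted p = 0.0029), while in fem-3 worms its value was 0.17 (95% interval -0.06 to 0.40). hsp-25 fell in fem-3 worms (-0.88, SE 0.30, adjusted p = 0.043), a call that was lost when any of the 6 libraries was left out, with values of -0.82 to -0.97. In glp-1 worms hsp-25 had a value of -0.62 (adjusted p = 0.15). The table fitted without the library with the fewest reads gave the same value with an adjusted p of 0.0011. The hsp-17 call in glp-1 worms was lost without mock replicate 2 or 3 at 8 h or replicate 2 at 48 h, and both glp-1 calls when the 2 groups were fitted alone (adjusted p of 0.062 for hsp-17 and 0.052 for hsp-43). Thus 2 of 6 members passed in each strain, 1 higher and 1 lower, against 22.8% of genes tested in glp-1 and 17.4% in fem-3 worms. Whether the changes with age differed between the strains was not tested.

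Auxin treatment, which removes the degron-tagged HSF-1 from the soma, changed few members in sterile worms. No sterile strain without the degron was sequenced. In these worms an effect of auxin itself therefore cannot be told apart from the loss of HSF-1. In glp-1 worms 0, 0 and 1 of 6 members passed at 8, 24 and 48 h, against 0.428%, 0.659% and 4.86% of genes tested. In fem-3 worms 0 of 6 passed at each hour, against 0.224%, 0.273% and 2.23%. At unadjusted p under 0.05 the members numbered 1, 4 and 2 in glp-1 worms, against 7.45%, 16% and 16.7% of genes tested, and 1 at each hour in fem-3 worms, against 4.03%, 6.57% and 11%. With limma-voom weights on the recovered reads, 0, 1 and 1 members passed in glp-1 worms, against 0.42%, 0.666% and 5.88% of genes tested, and 0, 0 and 1 in fem-3 worms, against 0.189%, 3.01% and 4.5%. The summed hsp-16 level fell in the same libraries. Of the 6 hsp-16 genes, 6, 6 and 4 passed as lower in glp-1 and 5, 1 and 1 in fem-3 worms. The mean hsp-16 sum in fem-3 worms was 4.05 CPM on auxin against 13.9 CPM on mock plates at 24 h. At 48 h it was 16.7 against 30.9 CPM. Of 8 HSP-90 and HSP70 chaperone genes and their cochaperones, 7, 7 and 6 passed as lower in glp-1 and 3, 5 and 5 in fem-3 worms. Median log2 fold changes on auxin at 8, 24 and 48 h were -3.98, -4.02 and -1.76 for hsp-16, -0.87, -0.93 and -0.81 for the chaperones and -0.01, 0.49 and 0.27 for the 6 members in glp-1 worms. The member median of 0.49 at 24 h rested on mock replicate 1, the library with the fewest reads, and was 0.03 without it. In fem-3 worms the member medians were -0.09, -0.00 and 0.28. With any 1 library left out, the medians at 8 and 48 h spanned -0.12 to 0.24 and 0.20 to 0.46 in glp-1 worms, and those at 24 h -0.31 to 0.18 in fem-3 worms.

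**Figure D3:**
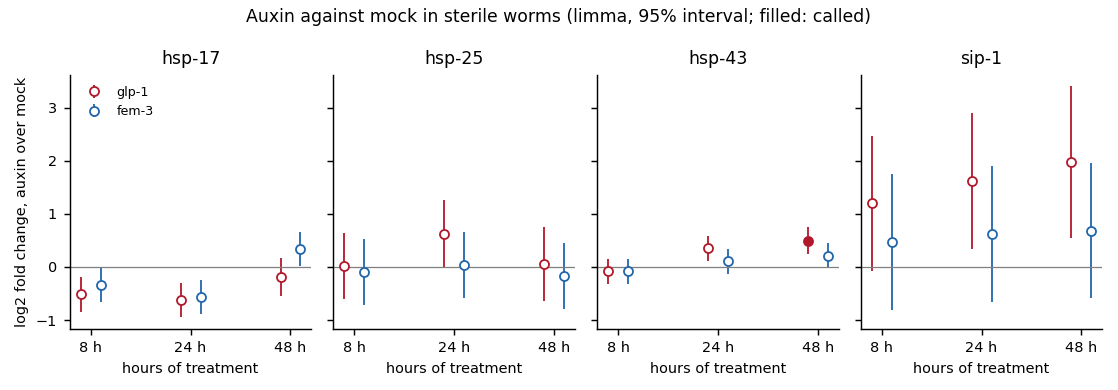
Log2 fold change on auxin, relative to mock treatment of the same strain and hour, of hsp-17, hsp-25, hsp-43 and sip-1 in glp-1 and fem-3 worms. Bars are 95% intervals of the limma fit, and the single filled point, hsp-43 in glp-1 worms at 48 h (0.50), is the value that passed the test.

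The member that passed was hsp-43. In glp-1 worms at 48 h it had 196.1 and 195.7 CPM on auxin, against 158, 143 and 119 CPM on mock plates. Both auxin libraries were above all mock libraries, and hsp-43 rose by a log2 fold change of 0.50 (SE 0.13, adjusted p = 0.019). The call was lost when either auxin library or mock replicate 3 was left out (0.39 to 0.50), when the 2 groups were fitted alone (adjusted p = 0.31) and, in a fit chosen after seeing the data, with glp-1 libraries only (adjusted p = 0.097). With the libraries whose title and agent label agree, which leave 1 auxin library, the value was 0.39. With groups set by the agent label it was -0.10. The hsp-16 sums overlap in that grouping, at 69.4 and 170.9 CPM in auxin and 148.3, 174.6 and 45.1 CPM in mock libraries. At 24 h hsp-43 had 194, 156 and 157 CPM on auxin against 112, 134 and 153 CPM on mock plates, again without overlap, with a log2 fold change of 0.35 (95% interval 0.12 to 0.59, adjusted p = 0.15). Without mock replicate 3 that value was 0.46 and passed (adjusted p = 0.026), and without mock replicate 1, the library with the fewest reads, it was 0.23 (adjusted p = 0.67). At 8 h the value was -0.08. In fem-3 worms hsp-43 had 124, 115.5 and 128 CPM on auxin against 97.9, 101 and 119 CPM on mock plates at 48 h, with overlap and a log2 fold change of 0.21 (adjusted p = 0.53). The difference of the auxin effect between glp-1 and fem-3 worms was 0.28 at 48 h (adjusted p = 0.71) and was not called.

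hsp-17 was lower on auxin than on mock plates at 8 and 24 h in both sterile strains, in every library, without passing the test. In glp-1 worms at 8 h it had 65.4, 73.7 and 54.1 CPM on auxin against 106.5, 89.4 and 80.2 CPM on mock plates, a log2 fold change of -0.52 (95% interval -0.84 to -0.20, adjusted p = 0.21). At 24 h it had 58.6, 72.5 and 56.1 CPM against 81.9, 119 and 88.7 CPM, a log2 fold change of -0.62 (-0.94 to -0.30, adjusted p = 0.058). The value at 24 h passed with each library centered on its median (adjusted p = 0.023) and with voom weights (adjusted p = 0.022), and without mock replicate 3. At 48 h in glp-1 worms it had 106 and 121 CPM on auxin against 120, 142.4 and 126.5 CPM on mock plates, which overlap, with a log2 fold change of -0.19 (adjusted p = 0.71).

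In fem-3 worms hsp-17 was lower on auxin at 8 and 24 h and higher at 48 h, without passing the test. At 8 h it had 26.7, 33.3 and 28.8 CPM on auxin against 36.8, 38.1 and 36.6 CPM on mock plates (log2 fold change -0.33), and at 24 h 41.2, 26.1 and 28.7 CPM against 46.1, 43.3 and 50.3 CPM (-0.56, adjusted p = 0.15). At 48 h it had 70.5, 82.4 and 71.8 CPM on auxin against 53.3, 58.4 and 65.9 CPM on mock plates, a log2 fold change of 0.34 (95% interval 0.02 to 0.66, adjusted p = 0.40). All auxin libraries were thus below mock at 8 and 24 h and above it at 48 h. The 48 h value passed when the 2 groups were fitted alone (adjusted p = 0.029), and the 24 h value without auxin replicate 1 (-0.76, adjusted p = 0.039) and with fem-3 libraries only (adjusted p = 0.015). The glp-1 and fem-3 effects of auxin on hsp-17 differed by -0.18, -0.06 and -0.53 at 8, 24 and 48 h, with a smallest adjusted p of 0.49.

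sip-1 in fem-3 worms had higher means on auxin than on mock plates at each hour. It had 122.5, 167.5 and 204 CPM on auxin against 90.2, 118 and 148 CPM on mock plates at 8 h, 215, 293 and 295 CPM against 144, 185 and 192 CPM at 24 h, and 244, 304 and 344 CPM against 171, 190 and 189 CPM at 48 h. The groups overlapped at 8 h and not at 24 or 48 h. Listed in replicate order, each auxin library was above the mock library of its replicate. Replicate numbers paired these samples at 24 h (correlation of deviations 0.12 to 0.23) and not at 8 or 48 h. The fits given here do not use that pairing. The log2 fold changes of 0.47, 0.62 and 0.68 did not pass in the fit of all 35 libraries, whose SE of 0.62 includes the scatter of near-zero glp-1 libraries (smallest adjusted p of 0.89). With fem-3 libraries only, a fit chosen after seeing the data, the SE was 0.17 and the adjusted p 0.47, 0.030 and 0.0099, and fitting the 2 groups alone gave 0.018 at 24 h and 0.00032 at 48 h. Means of the oogenic marker sum were 342, 471 and 456 CPM on auxin against 310, 450 and 388 CPM on mock plates, and those of the sperm sum 4910, 6272 and 5443 against 4312, 6081 and 5134 CPM. Their part in the sip-1 values was not tested. If the agent label in place of the title sets the groups, the fem-3 values at 8, 24 and 48 h are -0.17, -0.23 and -0.34 for sip-1 and 0.02, 0.46 and -0.07 for hsp-17.

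In glp-1 worms sip-1 stayed near the floor, with 16, 25 and 22 pooled reads on auxin against 5, 0 and 2 on mock plates at 8, 24 and 48 h. The fitted values of 1.20, 1.62 and 1.98 did not pass (smallest adjusted p of 0.10) and rest on counts of up to 21 reads in a library. On auxin the pooled level was 428-fold lower in glp-1 than in fem-3 worms at 8 h (exact 95% interval 263 to 748), 590-fold lower at 24 h (399 to 912) and 433-fold lower at 48 h (286 to 691).

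hsp-25 did not pass on auxin in either sterile strain. Its log2 fold changes at 8, 24 and 48 h were 0.02, 0.63 and 0.05 in glp-1 and -0.10, 0.04 and -0.17 in fem-3 worms. At 24 h in glp-1 worms the 3 auxin libraries had 102, 86.5 and 107 CPM against 23.8, 104 and 102.5 CPM on mock plates, the lowest being that of the library with the fewest reads, and the groups overlapped. The value rested on that library. Without it, mock replicate 1, the value was -0.07 (adjusted p = 0.998), and without mock replicate 2, which keeps it, 0.98 with a call (adjusted p = 0.048). Over the 3 hours the difference of the auxin effect between glp-1 and fem-3 worms passed for 0 of 6 members, against 0%, 0.035% and 0.399% of genes tested by limma, and by voom also for 0, against 0%, 0.028% and 0.442%. The members at unadjusted p under 0.05 numbered 0, 0 and 1, against 3.63%, 8.73% and 8.83% of genes tested.

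The hsp-12 genes were low throughout. hsp-12.2 had 3.02, 5.09 and 2.89 CPM in glp-1 against 0.426, 1.04 and 0.952 CPM in fem-3 mock worms at 8 h, which do not overlap, with a log2 fold change of 2.05 (SE 0.74, adjusted p = 0.015). That call was lost without fem-3 replicate 1 or glp-1 replicate 2, and at 24 and 48 h the values were 1.11 and 0.81 (adjusted p of 0.17 and 0.32). Centred on library medians they were 2.10 and 1.77 and passed (adjusted p of 0.011 and 0.030). hsp-12.3 had 1.92, 1.06 and 3.48 CPM in glp-1 mock worms at 48 h. Over all fem-3 libraries it had at most 0.825 CPM, so every glp-1 library at that hour lay above them. Its log2 fold change of 2.76 had an adjusted p of 0.010, but its mean over the table was under 2 CPM, so it does not count as changed. Mock glp-1 replicate 1 had no hsp-12.3 read at 8 h or at 24 h, against 2.12 and 2.02 CPM in the other libraries at 8 h and 2.54 and 2.98 CPM at 24 h. On auxin neither hsp-12.2 nor hsp-12.3 passed in either sterile strain (smallest limma adjusted p of 0.51). The hsp-12.2 log2 fold changes at 8, 24 and 48 h were -0.04, 0.07 and -0.17 in glp-1 and 0.29, -1.06 and -0.70 in fem-3 worms. For hsp-12.3 they were 1.18, 1.35 and 0.87 in glp-1 and -1.06, -0.04 and 0.97 in fem-3 worms.

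The levels of hsp-12.6 and hsp-12.1 differed with age in opposite directions. hsp-12.6 had 1.73, 3.28 and 2.09 CPM in mock glp-1 worms at 48 h (28, 62 and 33 reads), against 0.168, 0.503 and 0 CPM at 8 h. In mock fem-3 worms it had 0.433, 0.692 and 0.384 CPM at 48 h and no read at 8 h. hsp-12.1 ran the other way in mock glp-1 worms, with 0.0619, 0.476 and 0 CPM at 48 h against 1.76, 1.06 and 1.80 CPM at 8 h. The hours did not overlap for either gene. Without the filter on low values the fit gave 48 h against 8 h log2 fold changes in glp-1 worms of 3.09 for hsp-12.6 (adjusted p = 0.00014) and -2.76 for hsp-12.1 (adjusted p = 0.00070). Both means stay under 2 CPM, so neither counts as changed, and log2 values of such low genes depend on the prior count. In fem-3 worms all auxin libraries were below mock for hsp-12.1 at 24 h and above mock for hsp-12.6 at 48 h. At the other hours, and in glp-1 worms, auxin and mock libraries of these 2 genes were not separated.

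**Figure D4:**
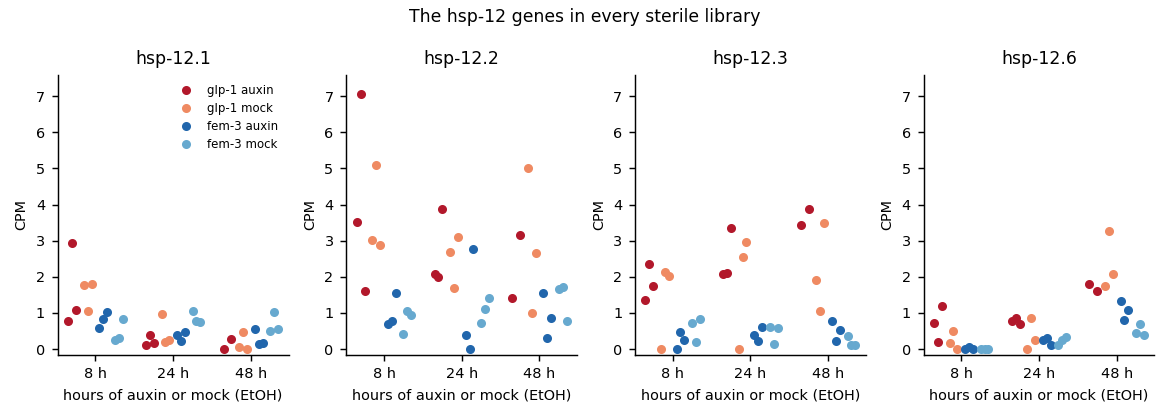
CPM of hsp-12.1, hsp-12.2, hsp-12.3 and hsp-12.6 in each sterile library by strain, agent and hour. Each point is a library. hsp-12.2 reaches 7.06 CPM, the other genes stay at or under 3.89 CPM, and fem-3 libraries hold at most 0.825 CPM of hsp-12.3.

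In fertile worms no member passed any of the 8 comparisons, 4 at each hour. The background was as low. No gene passed for JTL611 on auxin, against CA1200 or mock, at either hour. The summed CPM of the 8 HSP-90 and HSP70 chaperone and cochaperone genes still lay apart in JTL611 at 8 h. It was 6063 to 9000 on auxin against 11080 to 11160 on mock plates. At 24 h it was 5676 to 10850 against 8514 to 12480, which overlap. The hsp-16 sum in JTL611 at 24 h lay apart, at 0.0886 to 0.423 CPM on auxin against 1.137 to 15.7 CPM on mock plates. A lack of calls in fertile worms thus does not show a lack of response. The share of genes tested that passed at 8 h was 0% for JTL611 auxin against CA1200 auxin, 0% for JTL611 auxin against mock, 0.00931% for CA1200 auxin against mock and 0% for JTL611 mock against CA1200 mock. At 24 h the shares in the same order were 0%, 0%, 0.00976% and 0%. By limma 1 member value, that of hsp-17 between the mock strains at 8 h (log2 fold change -0.45, adjusted p = 0.99), had an unadjusted p under 0.05, and with voom 0 members passed as well. No hsp-16 gene was listed at 8 h, and 4 were at 24 h.

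Relative to its level hsp-17 showed the widest fertile spread among hsp-17, hsp-25, hsp-43 and sip-1. At 24 h it had 7.19, 5.21 and 6.52 CPM in JTL611 on auxin against 44.6, 11.1 and 4.81 CPM in CA1200 on auxin. On mock plates it had 20.3, 5.41 and 8.21 CPM in JTL611 against 23.3, 10.0 and 12.31 CPM in CA1200. The auxin groups overlapped, and the log2 fold change of JTL611 against CA1200 on auxin was -1.08 (95% interval -2.57 to 0.40) and did not pass in limma. The summed hsp-16 level was 0.423, 0.232 and 0.0886 CPM in JTL611 on auxin against 64.7, 8.09 and 1.28 CPM in CA1200 on auxin. On mock plates it was 15.7, 1.175 and 1.137 CPM in JTL611 against 45.2, 6.46 and 3.89 CPM in CA1200. Like hsp-17 it was highest in replicate 1 of every group, while replicates 2 and 3 did not always keep the order they had for hsp-17. The part of hsp-16 induction in the hsp-17 spread was not tested.

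Relative to their levels hsp-43 and hsp-25 had narrower ranges than hsp-17 in fertile worms. At 8 h hsp-43 spanned 29.0 to 44.1 CPM and hsp-25 10.4 to 15.8 CPM, and at 24 h hsp-43 spanned 30.2 to 51.0 CPM and hsp-25 7.76 to 14.8 CPM. For sip-1 the log2 fold change of JTL611 against CA1200 on auxin was -0.05 at 8 h and -0.17 at 24 h. At 8 h hsp-12.2 spanned 1.105 to 3.205 CPM, and at 24 h 0.426 to 1.45 CPM, and hsp-12.3 stayed at or under 1.74 CPM.

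**Figure D5:**
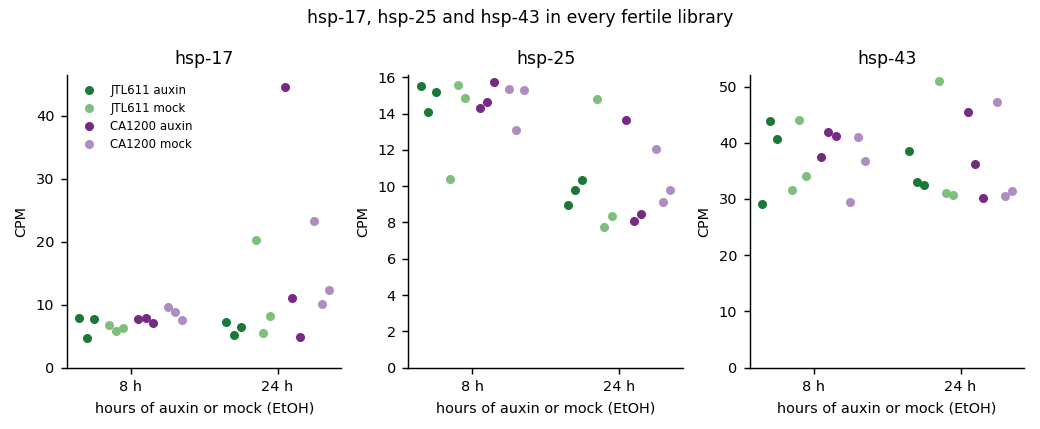
CPM of hsp-17, hsp-25 and hsp-43 in each fertile library of JTL611 and CA1200 by agent and hour, from 0. Each point is a library. The highest hsp-17 point is 44.6 CPM in CA1200 on auxin at 24 h, while JTL611 on auxin stays at 5.21 to 7.19 CPM at that hour.

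Per kilobase of exon, which allows levels of different genes to be compared, the order of the members differed between glp-1, fem-3 and fertile worms. In mock glp-1 worms at 8 h hsp-17 had 164 ± 24, hsp-43 138 ± 3.7 and hsp-25 115 ± 4.3 CPM per kb (SD, n = 3). The spreads of hsp-17 and hsp-43 overlapped, hsp-12.2 followed at 7.1 and sip-1 was last at 0.14 CPM per kb. In mock fem-3 worms at 8 h sip-1 led at 186 ± 45 CPM per kb, above hsp-43 at 67.8 ± 3.7 and hsp-17 at 66.4 ± 1.4, which did not differ beyond their spread, and hsp-25 at 49.7 ± 3.8 (SD, n = 3). In fertile JTL611 worms on mock plates at 8 h sip-1 stood at 1672 ± 72 CPM per kb (SD, n = 3), and hsp-43, hsp-25 and hsp-17 at 26.4, 11.99 and 11.2 CPM per kb. The hsp-12 genes had at most 3.23 CPM per kb in these fem-3 and fertile groups.

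The genes nearest in pattern were taken as the 3 with the highest Pearson correlation of log2 values over the 35 libraries. These libraries differ in strain, agent, hour and depth, and those differences enter each correlation. For sip-1 the nearest genes were ZC376.8, Y39B6A.18 and T08B6.4 (r = 0.99 each), and within the 18 fem-3 libraries msp-55, spsp-1 and Y54G2A.13 (r = 0.95 each). For hsp-25 they were ant-1.1, got-1.2 and zyx-1 (r = 0.96 each), for hsp-43 cap-1, ztf-13 and C04F12.8 (r = 0.95, 0.94 and 0.93), and for hsp-17 rege-1, osm-7 and Y51B9A.9 (r = 0.90, 0.89 and 0.89). The single nearest genes of the hsp-12 members were C47B2.9 for hsp-12.1 (r = 0.76), nrsn-1 for hsp-12.2 (r = 0.80), nhr-183 for hsp-12.3 (r = 0.81) and rep-1 for hsp-12.6 (r = 0.86). Within the 17 glp-1 libraries the genes nearest to hsp-17 were dnj-19, dnj-12 and hsp-90 (r = 0.89, 0.88 and 0.86). The members did not share one pattern. hsp-17 and hsp-43 had r = 0.71 over all 35 libraries, 0.80 within fem-3 and -0.31 within glp-1 libraries, while hsp-25 and hsp-43 had r = 0.75, -0.56 and 0.68 in the same order.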

How the data were processed

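Whole-worm poly(A) RNA-seq was deposited as 3 tables of log2 CPM, which the authors made with STAR on WBcel235, featureCounts and edgeR normalization after removing low genes. Versions are not given in the sources used here. A table column marking changed genes holds the authors' calls and was not used. Undoing the log and the prior (0.1139, 0.1098 and 0.1243 CPM at 8 h, at 24 h and in sterile worms) gave whole reads (within 0.05) for 100% of low values, and CPM in the text is that value. The log2 values were fitted with limma 3.58.1 in R 4.3.3 (all groups of a table together, trended variance, two-sided, Benjamini-Hochberg over the 10739, 10245 or 14269 genes tested). The fit was also run on simulated counts drawn independently for each library. Those counts lack the replicate effects of these data, so they do not show how the fit performs here. Count models were not run, since the tables hold log2 values, and voom took the recovered reads.

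The members and gene lists were chosen with earlier results of these data known. Not every member has a value printed for every comparison. Other genes were named only from the lists or as the 3 nearest in pattern. Replicate numbers paired samples (every correlation of deviations over 0.1) in 6 of 19 comparisons, among them all 4 fertile comparisons at 24 h. Alternatives were other pseudocounts, filters, centring, voom, a replicate block, fewer groups or libraries, and grouping by the agent label. Gene positions and exon lengths are those of the reference annotation of WBcel235.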

Additional observations from a re-analysis of the deposited data

Results flagged for a closer look

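The effect of auxin on hsp-17 in fem-3 worms had opposite signs at 24 and 48 h, but no difference between hours passed. The log2 fold change was 0.90 higher at 48 h than at 24 h (SE 0.22, 95% interval 0.45 to 1.36) and 0.67 higher at 48 h than at 8 h (SE 0.22, 95% interval 0.22 to 1.13). Both differences were tested after the values had been seen. The limma p-values were 0.00036 and 0.0052 before and 0.11 and 0.26 after Benjamini-Hochberg adjustment over all genes, so neither passed. All 3 auxin libraries were below the mock libraries at 8 and 24 h and above them at 48 h. With groups set by the agent label, the hsp-17 values given above had the opposite sign at each hour.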

How the results depend on the processing

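Of 306 alternative log2 fold changes of members that passed, 271 kept direction and call and 34 kept direction alone. The remaining one was that of hsp-43, which on auxin at 48 h in glp-1 worms took a value of -0.10 when the agent label set the groups. The counts of members that passed moved by over 1.5 times as follows. On auxin in glp-1 worms at 24 h, 1 passed with median centring and 1 with voom, and 0 to 2 with 1 library left out. At 48 h 0 passed with only the groups compared, 0 with libraries whose labels agree, 0 by the agent label, 0 with libraries of the strain only, and 0 to 1 with 1 library left out. In fem-3 worms on auxin, 1 passed at 24 h with only the groups compared, 2 with libraries of the strain only and 0 to 1 with 1 library left out. At 48 h 2 passed with only the groups compared, 1 with voom and 1 with libraries of the strain only. Between mock glp-1 and fem-3 worms at 24 h 2 passed with libraries whose labels agree. Between 48 and 8 h in glp-1 mock worms 1 passed with only the groups compared, 0 with agreeing labels, 1 by the agent label, 1 with the strain only and 1 to 2 with 1 library left out. In fem-3 mock worms 0 passed with agreeing labels and 1 with any 1 library left out. Smaller moves were 5 against 4 between the mock strains at 24 h with median centring and by the agent label, 5 at 48 h with median centring and without the limit on mean expression, and 3 at 48 h and 4 against 5 at 8 h with agreeing labels. With 1 library left out these counts were 4 to 5 at 8 h and 3 to 4 at 24 h. Between 48 and 8 h, 3 passed against 2 in glp-1 worms without the library with the fewest reads, and 3 against 2 in fem-3 worms with voom, only the groups compared or the strain only. The causes were not tested. With agreeing labels every fem-3 group and the auxin glp-1 group at 48 h keep 1 library, so counts from that fit rest on single libraries.

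The fit with a replicate block changed no count of members that passed, with 1 on auxin in glp-1 worms at 48 h and 0 in the fertile comparisons. Fits with the strain only and without the library with the fewest reads were chosen after seeing the data. Depth limits the hsp-12 genes and sip-1 in glp-1 worms, where a library can hold 0 to 3 reads.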
